A study of Mus musculus with 24 samples.

Results

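Antigen presentation by major histocompatibility complex (MHC) class I was followed through 10 genes: the heavy chains H2-K1 and H2-D1, their light chain B2m, the peptide transporter genes Tap1 and Tap2, the loading factor Tapbp, the immunoproteasome subunit genes Psmb8, Psmb9 and Psmb10, and the regulator Nlrc5. They were picked by name, with no measured value in the rule but with earlier results of these data known, and matched by symbol. All 10 were among the 10393 genes of the 16 h table, and 6 were among the 7723 genes of the 72 h table (H2-K1, H2-D1, B2m, Tap2, Tapbp and Psmb10). The remaining 4 were not analysed at 72 h. Each table holds a selection of genes, on criteria that no source used here states, so presence in a table says nothing about a change.

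The RNA came from whole hearts of mice whose genotype the labels give as WT, with no strain, sex or age in them. At 16 h there were 4 groups of 3 libraries: V received vehicle, H received 10 mg/kg hesperitin daily, DOX received 25 mg/kg doxorubicin, and DOXH received the doxorubicin and the hesperitin. At 72 h, V and DOX were used, again with 3 libraries each. That makes 18 libraries, in a series of 24 samples all labelled as 1 batch. The number of 1 DOX library at 72 h matches no label, so that library is known by its group only. Doxorubicin is an anthracycline that can injure the heart, and hesperitin is the labels' spelling of a citrus flavanone. The labels do not say whether each library is a separate animal, so a p-value covers the spread among libraries, which may be technical. Library totals ran from 9255651 to 19869050 expected counts at 16 h, highest in the 3 H libraries (at least 17664060), and from 16607805 to 20587578 at 72 h. The DOXH libraries lay far apart on the first principal component at 16 h (8.28, 35.1 and -17.7, with DOX at 29.4 to 42.2 and V at -20.7 to -18). The library at -17.7 is DOXH replicate 3, and results that rest on it are given with and without it.

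Class I molecules show peptides from inside a cell to CD8+ T cells. Proteasomes cut proteins into peptides, the Tap1-Tap2 transporter moves these into the endoplasmic reticulum, tapasin (Tapbp) holds the empty heavy chain to the transporter, and a loaded heavy chain leaves for the cell surface with beta-2 microglobulin (B2m). Interferons raise the whole set: Psmb8, Psmb9 and Psmb10 then replace the catalytic subunits Psmb5, Psmb6 and Psmb7 in newly built proteasomes, and Nlrc5 acts as a transactivator of class I promoters. Heart muscle cells are known for low class I levels at rest, while endothelial cells and leukocytes carry more.

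In the annotation of the mouse genome build GRCm38 (GENCODE vM21), 7 of the 10 genes lie on chromosome 17, in or beside the MHC. Psmb9 (17:34181987-34187764, minus strand), Tap1 (17:34187553-34197225, plus), Psmb8 (17:34197721-34201454, plus) and Tap2 (17:34203527-34216321, plus) sit side by side within 34335 bases. Exons of Psmb9 and Tap1 overlap on opposite strands by 212 bases, which is 5.79% of the exonic bases of Psmb9 and 3.87% of those of Tap1. The strand setting of the count is not given in the sources used here, so reads from that overlap cannot be told apart. The same holds for Tapbp, of whose exonic bases 24.9% overlap Gm19412 on the opposite strand and 4.11% overlap Zbtb22 on its own strand, for Tap2 (14.1%, Gm15821) and for Psmb8 (14.7%, Gm20496). H2-K1 spans 17:33996017-34000347 (minus), Tapbp 17:33915899-33929292 (plus) and H2-D1 17:35262730-35267499 (plus). B2m is on chromosome 2 (2:122147686-122153083, plus), and Psmb10 (8:105935735-105938444, minus) and Nlrc5 (8:94434356-94527272, plus) are on chromosome 8.

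Promoter windows from RefSeq (GRCm38.p6; 250 bases before to 50 after a start, 300 in all) matched 8 of the 10 genes. The RefSeq starts are not always the GENCODE starts given above: the windows of Psmb8, H2-D1, Tapbp and Psmb9 lie inside the annotated genes. The 250 bases before the start are printed for the genes called higher with doxorubicin: Tap1 and Psmb8 at 16 h, and H2-K1, H2-D1 and B2m at 72 h. The window of Psmb10, called lower at 72 h, is not printed. Capitals mark letters that match 1 of 5 short motifs on either strand: an interferon regulatory factor (IRF) element, GAANNGAAA; a gamma-activated site, TTCNNNGAA; the NF-kB consensus; the core of the X2 box, TGACG; and the Y box, ATTGG. The X2 and Y boxes belong to the module through which Nlrc5 is known to act.
H2-K1, 17:34000348-34000597, minus strand: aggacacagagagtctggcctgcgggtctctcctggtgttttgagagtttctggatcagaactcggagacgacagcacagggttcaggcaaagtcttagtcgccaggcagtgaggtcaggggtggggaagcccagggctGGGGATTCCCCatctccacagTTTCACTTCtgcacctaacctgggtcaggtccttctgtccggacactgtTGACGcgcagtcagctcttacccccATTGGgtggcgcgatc
H2-D1, 17:35262844-35263093, plus strand: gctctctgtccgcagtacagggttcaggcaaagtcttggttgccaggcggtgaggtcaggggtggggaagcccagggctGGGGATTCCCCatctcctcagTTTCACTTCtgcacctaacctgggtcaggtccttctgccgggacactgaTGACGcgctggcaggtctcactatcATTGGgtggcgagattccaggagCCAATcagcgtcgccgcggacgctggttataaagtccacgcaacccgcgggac
B2m, 2:122147437-122147686, plus strand: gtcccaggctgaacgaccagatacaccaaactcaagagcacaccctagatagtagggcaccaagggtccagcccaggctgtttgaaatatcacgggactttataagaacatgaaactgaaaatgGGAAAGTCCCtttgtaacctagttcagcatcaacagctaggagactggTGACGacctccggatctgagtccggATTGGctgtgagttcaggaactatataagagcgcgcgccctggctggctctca
Tap1, 17:34187306-34187555, plus strand: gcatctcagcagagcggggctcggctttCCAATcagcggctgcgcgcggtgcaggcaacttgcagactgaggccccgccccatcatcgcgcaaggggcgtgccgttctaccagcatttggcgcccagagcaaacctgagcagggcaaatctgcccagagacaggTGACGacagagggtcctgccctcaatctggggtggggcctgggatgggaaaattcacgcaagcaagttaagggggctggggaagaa
Psmb8, 17:34197945-34198194, plus strand: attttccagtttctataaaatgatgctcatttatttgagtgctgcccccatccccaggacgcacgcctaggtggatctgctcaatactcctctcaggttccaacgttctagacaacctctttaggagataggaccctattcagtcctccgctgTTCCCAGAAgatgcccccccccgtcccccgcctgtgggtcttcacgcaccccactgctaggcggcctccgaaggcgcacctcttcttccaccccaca

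H2-K1 and H2-D1 have nearly the same promoter: over 239 aligned bases of their windows, 214 were identical (89.5%). Both hold the NF-kB letters followed by an IRF element, then TGACG and ATTGG. Over the whole 300-base windows, the exact IRF letters GAANNGAAA were found in 2 of 8 members (H2-K1 and H2-D1) and in 7.52% of 32817 windows of all genes. The NF-kB consensus was in 3 of 8 (B2m also) and in 8.46% of all windows, and the gamma-activated site in 1 of 8 (Psmb8) and in 8.29%. TGACG was in 5 of 8 (H2-K1, H2-D1, B2m, Tap1 and Psmb9) and in 20.8% of all windows, and ATTGG in 6 of 8 (these and Tapbp) and in 37.4%. The Tap1 and Psmb9 windows face each other and share 275 bases, so their matches are the same letters. Only these exact letters were sought. B2m holds gaaactgaaa shortly before its NF-kB letters, 1 letter longer than the IRF string and so not counted. The IRF count thus does not say that B2m lacks such an element. A match describes the sequence and is no measured binding.

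Levels are given as CPM, expected counts scaled to library size with TMM, a correction for library composition. Divided by the length of the longest coding transcript (CPM per kb), B2m was the most abundant of the 10 in V hearts at 16 h, at 199 ± 33.7 (SD, n = 3, as for all means here). H2-D1 (56.2 ± 5.69) and H2-K1 (54.4 ± 10.9) came next and overlapped each other. Tapbp stood at 16.8 ± 0.446 and Psmb10 at 15.0 ± 0.776 CPM per kb, clear of their neighbours. Tap2 (5.44 ± 0.173) and Psmb8 (5.28 ± 1.30) overlapped, as did Psmb9 (2.60 ± 0.405) and Tap1 (2.34 ± 0.264), and Nlrc5 was lowest at 0.729 ± 0.192. In vehicle hearts the genes of peptide supply, transport and loading were thus below the heavy chains and B2m on this scale. In DOX at 16 h Tap1 moved up from beside Psmb9: it reached 9.01 ± 1.46 CPM per kb and overlapped Psmb8 (8.97 ± 2.32), with Tap2 (6.46 ± 1.74), Psmb9 (4.52 ± 2.07) and Nlrc5 (1.69 ± 0.820) after it. At 72 h B2m, H2-D1, H2-K1, Tapbp, Psmb10 and Tap2 followed in the same order in V and DOX. H2-K1 and H2-D1 have close relatives, and 8.79% and 14.3% of the 50-base windows of their longest transcripts occur in another gene, so their counts depend in part on how the authors' counting split reads. No such window was shared by B2m, Psmb8, Psmb9, Psmb10 or Nlrc5, and at most 2.0% by Tap1, Tap2 or Tapbp.

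**Figure D1:**
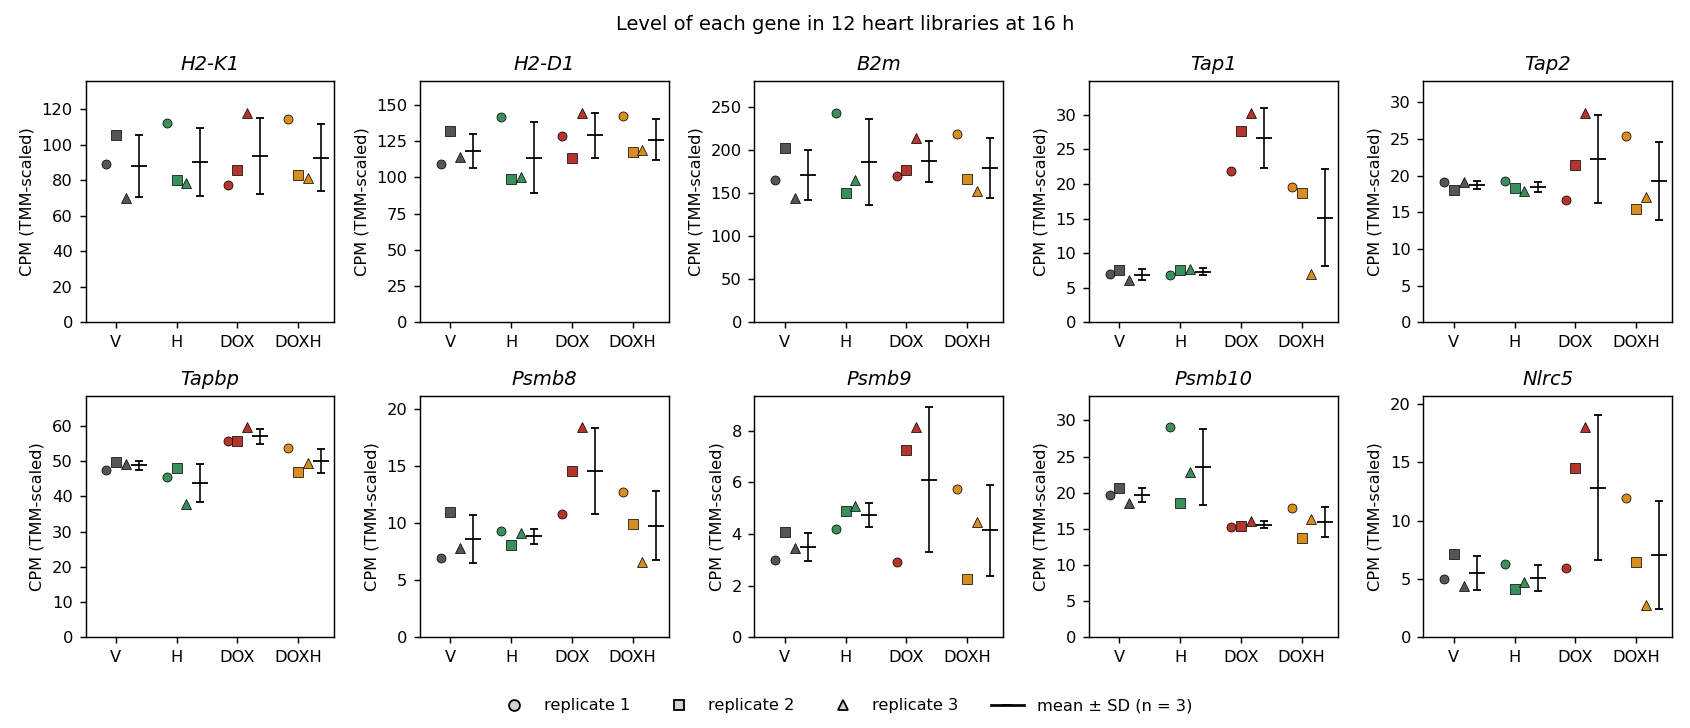
Level of each of the 10 genes in the 12 libraries at 16 h (vertical axis, TMM-scaled CPM from 0; horizontal axis, group; symbols mark the replicate number, bars the mean ± SD of 3 libraries). Tap1 separates the DOX libraries (21.9 to 30.3 CPM) from V (6.07 to 7.62 CPM), while H2-K1, H2-D1 and B2m overlap in all groups.

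Doxorubicin against vehicle at 16 h asks how early the pathway responds to the drug. Of the 10 genes, Tap1 and Psmb8 rose and none fell, by edgeR's quasi-likelihood test with Benjamini-Hochberg adjustment over all genes and a threshold of 0.05. That is 2 of 10 against 15.6% of all 10393 genes called higher and 16.6% called lower in the same comparison, a share near the background. The median log2 fold change of the 10 was 0.24, beside 0.02 over all genes. The heavy chains and B2m did not pass the test. In bulk tissue, fewer cells of a type and less RNA per cell cannot be told apart.

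Tap1, the transporter chain that pairs with Tap2, read 7.04, 7.62 and 6.07 CPM in V replicates 1 to 3 and 21.9, 27.6 and 30.3 CPM in DOX. Every DOX library was far above every V library. The log2 fold change was 1.94 ± 0.30 (SE; adjusted p = 0.00269), rank 62 of 10393 genes by size of rise. Its partner Tap2 read 19.1, 18.04 and 19.1 CPM in V and 16.7, 21.5 and 28.6 CPM in DOX. The DOX libraries of Tap2 spread to both sides of V, and the change of 0.25 ± 0.20 did not pass (adjusted p = 0.346). Tapbp, encoding tapasin, read 47.3, 49.9 and 49.1 CPM in V and 55.7, 55.7 and 59.6 CPM in DOX. The Tapbp groups did not overlap, yet the change of 0.22 ± 0.09 missed the threshold (adjusted p = 0.0876).

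Among the immunoproteasome genes, Psmb8, which encodes the inducible counterpart of Psmb5, read 6.94, 11.0 and 7.85 CPM in V and 10.8, 14.5 and 18.4 CPM in DOX. The highest V library lay just above the lowest DOX library, and the log2 fold change was 0.76 ± 0.25 (adjusted p = 0.0369). This call is close to the threshold: it was lost without V replicate 1 (0.63, adjusted p = 0.130), without V replicate 3 (0.70, 0.110), without H replicate 3 (adjusted p = 0.0503), without DOX replicate 2 (0.77, 0.0777) and without DOX replicate 3 (0.56, 0.134). Psmb9, the inducible counterpart of Psmb6, read 2.99, 4.08 and 3.45 CPM in V and 2.92, 7.27 and 8.13 CPM in DOX. DOX replicate 1 lay below all V libraries and the other DOX libraries above them, and the change was 0.80 ± 0.37 (adjusted p = 0.114). Psmb10, the inducible counterpart of Psmb7, went the other way, with 19.7, 20.7 and 18.6 CPM in V and 15.3, 15.3 and 16.1 CPM in DOX. Its groups did not overlap, and the change of -0.34 ± 0.15 did not pass (adjusted p = 0.109).

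Nlrc5, the class I transactivator, read 5.01, 7.16 and 4.40 CPM in V and 5.93, 14.5 and 17.99 CPM in DOX. DOX replicate 1 lay in the V range and the other DOX libraries above it. The change of 1.21 ± 0.47 missed the threshold (adjusted p = 0.0703), while DESeq2 called it (1.20, adjusted p = 0.0328), as did edgeR without DOXH replicate 1 (adjusted p = 0.0452) or DOXH replicate 3 (0.0370). Without DOX replicate 1, Nlrc5 (1.55, adjusted p = 0.0321) and Psmb9 (1.13, adjusted p = 0.0242) passed, and 4 of the 10 genes were called. In that library Tap1 was nonetheless 21.9 CPM, above the highest V library at 7.62 CPM.

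The class I molecule itself did not pass at 16 h. H2-K1 read 89.0, 105 and 70.1 CPM in V and 77.2, 85.7 and 118 CPM in DOX (0.09 ± 0.21, adjusted p = 0.775). H2-D1 read 109, 132 and 114 CPM in V and 129, 113 and 145 CPM in DOX (0.13 ± 0.15, adjusted p = 0.536). B2m read 166, 202 and 145 CPM in V and 170, 177 and 215 CPM in DOX (0.13 ± 0.20, adjusted p = 0.638). All 3 pairs of groups overlapped. When the 8 class I heavy chain genes in the table were summed per library (H2-K1, H2-D1, H2-Q4, H2-Q6, H2-Q7, H2-T22, H2-T23 and H2-T24), which removes the question of how reads are split among them, V held 275, 328 and 258 CPM and DOX 304, 297 and 388 CPM. The summed change was 0.20 ± 0.17 (adjusted p = 0.388), and H2-K1 with H2-D1 made up 69.7% of the summed counts.

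Of the 10 genes, 2 had higher DOX than V values without overlap (Tap1 and Tapbp) and 1 lower (Psmb10), where 28.4% and 28% of all genes did so. Markers of immune cells moved with the drug at 16 h, where 15.6% of all genes were called higher and 16.6% lower. The summed level of 7 leukocyte genes was 58.3 to 75.9 CPM in V and 107 to 116 CPM in DOX, with 4 of the 7 called higher. The 12 macrophage genes summed to 345 to 420.1 CPM in V and 410.2 to 515 CPM in DOX, with 2 called higher and 1 lower. The 10 endothelial genes summed to 2509 to 2719 CPM in V and 2239 to 2702 CPM in DOX, with 2 lower, and the 10 cardiomyocyte genes fell from 54400 to 62560 CPM in V to 30420 to 32380 CPM in DOX, all 10 called lower. The 6 neutrophil genes measured summed to 22.7 to 72.7 CPM in V and 138 to 255 CPM in DOX, with none called. The 10 fibroblast genes summed to 1717 to 2235 CPM in V and 1976 to 2307 CPM in DOX (none called), the 10 mural cell genes to 2422 to 2619 CPM and 2092 to 2155 CPM (3 lower), and the 1 dendritic cell gene measured, Zbtb46, read 16.9 to 20.5 CPM and 15.2 to 17.3 CPM (not called). Of 11 T cell genes, 1 was measured (Cd28, 4.73 to 5.62 CPM in V and 1.37 to 2.10 CPM in DOX, called lower), and of 9 NK cell and 7 B cell genes none. No measured marker was at 0 in a group. The part of cell composition in the changes above was not tested.

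At 72 h the calls fell on the class I molecule itself, with Tap1, Psmb8, Psmb9 and Nlrc5 not analysed at that time. H2-K1, H2-D1 and B2m rose and Psmb10 fell, while Tap2 and Tapbp did not pass, so 3 of the 6 genes measured were called higher and 1 lower. Among the 7703 genes tested, 26.5% were called higher and 27.2% lower. The median log2 fold change of the 6 was 0.30, beside 0.01 over all genes.

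**Figure D2:**
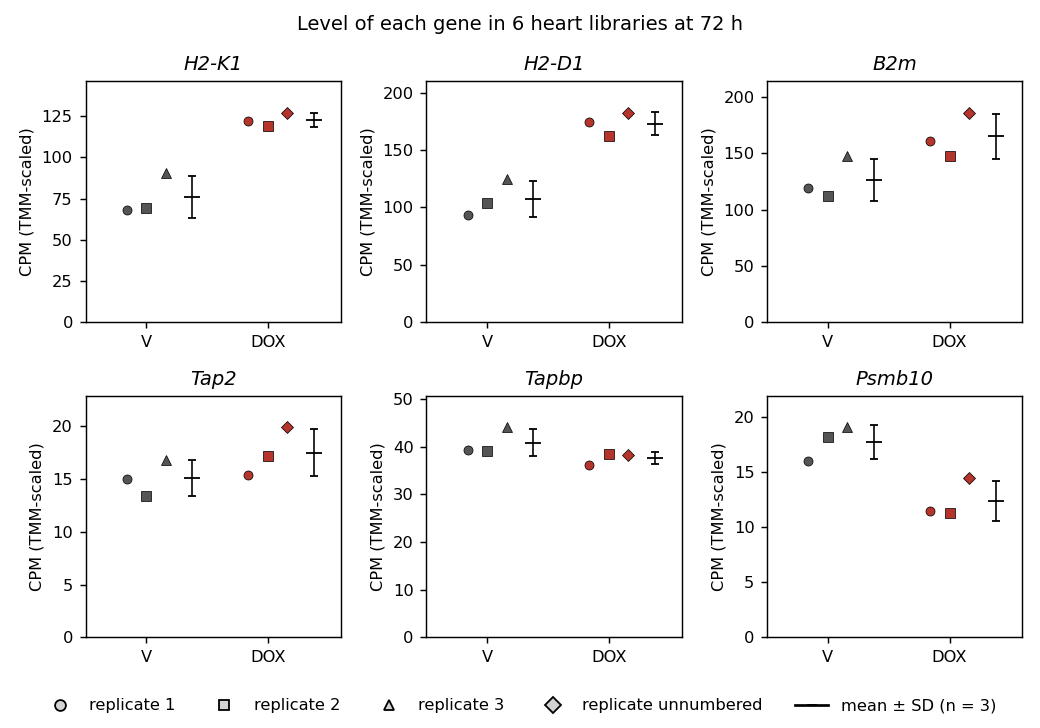
Level of the 6 genes measured in the 6 libraries at 72 h (vertical axis, TMM-scaled CPM from 0; symbols mark the replicate number, bars the mean ± SD of 3 libraries). DOX lies above V without overlap for H2-K1 and H2-D1, below V without overlap for Psmb10 and narrowly for Tapbp, and overlaps V for Tap2 and, by the margin of 1 library, for B2m.

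H2-K1 read 68.2, 69.4 and 90.8 CPM in V and 122, 119 and 127 CPM in DOX. H2-D1 read 93.6, 104 and 125 CPM in V and 174, 162 and 183 CPM in DOX. For both heavy chains each DOX library was above each V library, and the 2 log2 fold changes were almost equal. They were 0.69 ± 0.11 for H2-K1 (adjusted p = 0.00102) and 0.69 ± 0.11 for H2-D1 (adjusted p = 0.000924). Summed over the 7 heavy chain genes in the table, V held 225, 234 and 299 CPM and DOX 422, 400.4 and 447 CPM, a change of 0.74 ± 0.12 (adjusted p = 0.000737).

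B2m, the light chain that all these heavy chains need, read 119, 112 and 148 CPM in V and 161, 147 and 186 CPM in DOX. V replicate 3 and DOX replicate 2 were level, and the other libraries did not overlap. The log2 fold change of 0.38 ± 0.13 passed narrowly (adjusted p = 0.0279). It no longer passed without V replicate 1 (0.34, adjusted p = 0.0955), V replicate 2 (0.30, 0.105), DOX replicate 1 (0.40, 0.0610) or the DOX library without a number (0.29, 0.0884).

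Psmb10 read 16.0, 18.2 and 19.1 CPM in V and 11.5, 11.2 and 14.5 CPM in DOX. The groups did not overlap, as at 16 h, and here the fall of -0.52 ± 0.13 passed (adjusted p = 0.00694). Tapbp read 39.4, 39.0 and 44.1 CPM in V and 36.2, 38.4 and 38.2 CPM in DOX, now lower in DOX without overlap, at -0.12 ± 0.08 (adjusted p = 0.223). Tap2 read 15.0, 13.4 and 16.8 CPM in V and 15.4, 17.2 and 19.9 CPM in DOX, overlapping, at 0.21 ± 0.13 (adjusted p = 0.177). Of the 6 genes, 2 were higher without overlap and 2 lower, where 31.2% and 32.3% of all genes were.

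Marker levels also moved at 72 h, where 26.5% of all genes were called higher and 27.2% lower. The 6 leukocyte genes measured summed to 47.1 to 56.4 CPM in V and 61.2 to 95.9 CPM in DOX (4 called higher), and the 10 macrophage genes to 282 to 363 CPM in V and 466 to 569 CPM in DOX (7 higher, 1 lower). The 10 endothelial genes summed to 2232 to 2349 CPM in V and 3220 to 4293 CPM in DOX (6 higher, 1 lower), and the 10 cardiomyocyte genes to 44450 to 52750 CPM in V and 17760 to 22080 CPM in DOX (9 lower). The neutrophil genes had the largest shift of these lists: the 3 measured summed to 0.957 to 1.98 CPM in V and 26.4 to 133 CPM in DOX (3 higher, median log2 fold change 6.27). The 9 fibroblast genes summed to 1232 to 1645 CPM in V and 1699 to 2621 CPM in DOX (2 higher, 1 lower), the 10 mural cell genes to 1973 to 2157 CPM and 2126 to 2471 CPM (1 higher, 2 lower), and Zbtb46 read 12.3 to 12.8 CPM and 13.6 to 20.1 CPM (called higher). The part of these shifts in the rise of the class I genes was not tested. In the opposite direction, MHC class II genes, which show peptides to CD4+ T cells on professional presenting cells, fell at both times. All 4 measured were called lower at 16 h (median -1.07, with H2-Ab1 at -1.35 ± 0.29, adjusted p = 0.00734) and at 72 h (median -2.56, with H2-Aa at -2.65 ± 0.13, adjusted p = 1.48e-05). Of all genes, 16.6% were called lower at 16 h and 27.2% at 72 h.

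**Figure D3:**
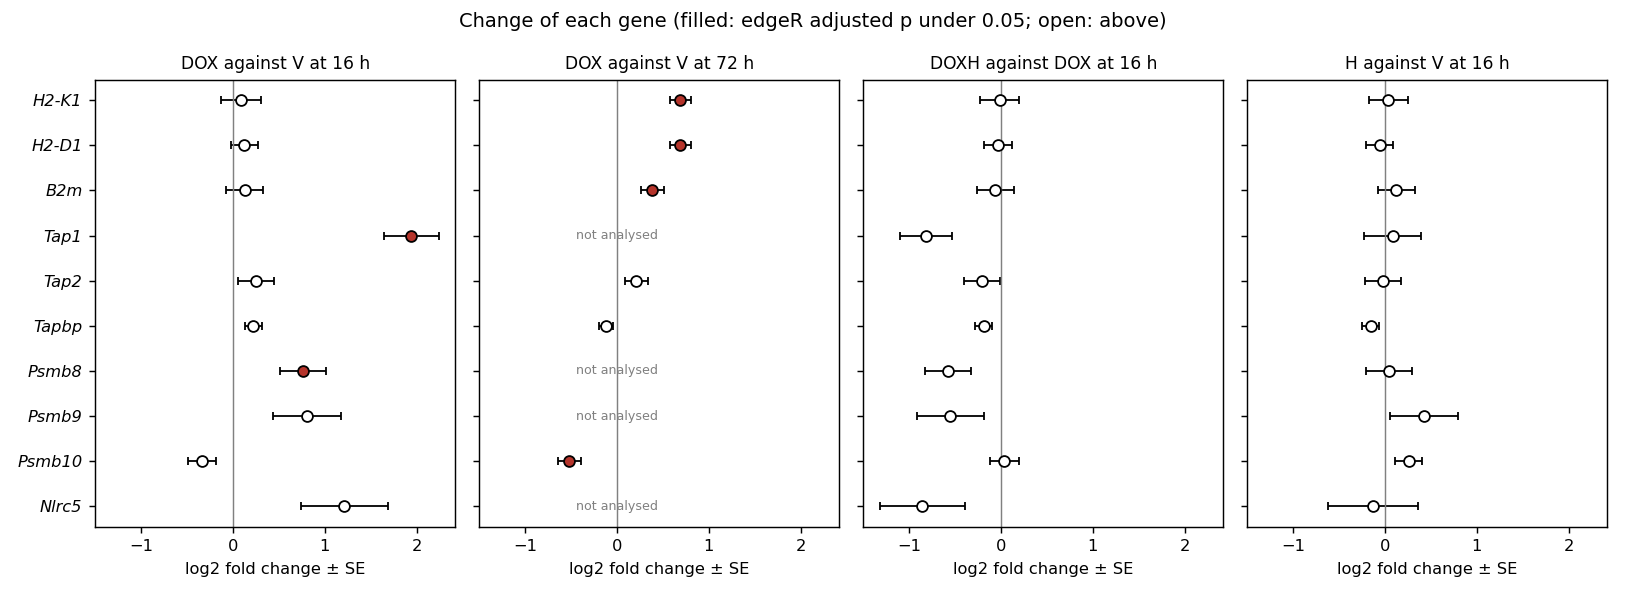
Log2 fold change ± SE of each gene in 4 comparisons (horizontal axis; 0 is no change; filled points have an edgeR adjusted p under 0.05, and "not analysed" marks the 4 genes without a value at 72 h). Filled points are Tap1 and Psmb8 for DOX against V at 16 h and H2-K1, H2-D1, B2m and Psmb10 at 72 h, and none where hesperitin was compared.

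Whether the doxorubicin change differed between the times was tested directly for the 6 genes measured at both, in 1 model over the 18 libraries and 7407 shared genes. Tapbp was the 1 gene called: its change at 72 h minus that at 16 h was -0.35 ± 0.12 (adjusted p = 0.0433), from 0.22 to -0.12, against 13.8% of all shared genes called lower and 12.6% higher. This call was lost in 10 of the fits that leave out 1 library, with values of -0.38 to -0.30. The heavy chain changes were larger at 72 h by 0.59 ± 0.28 for H2-K1 (adjusted p = 0.122) and 0.56 ± 0.20 for H2-D1 (adjusted p = 0.0542), neither past the threshold. The summed heavy chains gave 0.57 ± 0.23 (adjusted p = 0.0823), and 0.71 without V replicate 3 at 72 h, where they passed (adjusted p = 0.0474). The heavy chains were thus called at 72 h and not at 16 h, without a called difference between the times. For B2m (0.25 ± 0.27, adjusted p = 0.520), Tap2 (-0.05 ± 0.26, 0.911) and Psmb10 (-0.19 ± 0.21, 0.522) the difference was smaller than its error or close to it. The times were counted in separate tables, so levels are not compared across them.

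Hesperitin alone left the pathway without a call. None of the 10 genes passed in H against V by edgeR, DESeq2 or limma voom, none had an unadjusted p under 0.05, and 0% of all genes were called by edgeR (13 genes by DESeq2). Adjusted p-values ran from 0.842 to 0.997, and the median log2 fold change was 0.04. Psmb9 was the 1 gene whose groups did not overlap, at 4.19, 4.90 and 5.09 CPM in H against 2.99 to 4.08 CPM in V (0.43 ± 0.37), where 8.04% of all genes were higher and 7.53% lower without overlap. Tap1 was level, at 6.79, 7.57 and 7.66 CPM in H. In H replicate 1 the class I molecule stood apart from the other H libraries: B2m read 244, 150.1 and 165 CPM, H2-D1 142, 98.6 and 100.2 CPM, and H2-K1 112, 80.3 and 78.4 CPM in H replicates 1 to 3.

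Adding hesperitin to doxorubicin asks whether the drug's effect on the pathway is altered. DOXH against DOX gave no call among the 10 genes by edgeR, DESeq2 or limma voom, with 2 genes at an unadjusted p under 0.05 (Tap1 and Psmb8). By edgeR 0% of all genes were called, while DESeq2 called 390 genes and edgeR without DOXH replicate 2 called 1554, none of them a member in either case. Tap1 read 19.5, 18.7 and 7.05 CPM in DOXH against 21.9 to 30.3 CPM in DOX. All DOXH libraries were lower, and replicate 3 was inside the V range. The log2 fold change was -0.82 ± 0.28 (adjusted p = 0.183), and -0.48 without DOXH replicate 3 (adjusted p = 0.327) or -0.99 without DOXH replicate 2 (adjusted p = 0.0573). Tapbp also had no overlap (53.7, 46.8 and 49.5 CPM in DOXH; -0.19 ± 0.09, adjusted p = 0.308), so 2 of 10 genes were lower without overlap and 0 higher, where 8.72% of all genes were lower and 10.1% higher.

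Psmb8, Psmb9 and Nlrc5 also had negative estimates in DOXH against DOX, none past the threshold. Psmb8 read 12.7, 9.96 and 6.64 CPM in DOXH (-0.58 ± 0.25, adjusted p = 0.242), Psmb9 5.74, 2.25 and 4.46 CPM (-0.55 ± 0.37, 0.426) and Nlrc5 11.96, 6.43 and 2.80 CPM (-0.85 ± 0.47, 0.340). Without DOXH replicate 3 the values were -0.36 for Psmb8 (adjusted p = 0.624), -0.60 for Psmb9 (0.666) and -0.48 for Nlrc5 (0.751). In each of these, the DOXH libraries reached from the DOX range down into the V range or below it. Tap2 was at -0.20 ± 0.20, and H2-K1, H2-D1, B2m and Psmb10 lay between -0.06 and 0.04. The median of the 10 was -0.20, beside -0.01 over all genes.

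DOXH set against the groups without doxorubicin shows how much rests on 1 library. Against V, none of the 10 genes was called by edgeR and 1 had an unadjusted p under 0.05: Tap1 was 1.13 ± 0.31 higher (adjusted p = 0.200), and 1.46 higher without DOXH replicate 3, where it passed (adjusted p = 0.000365). DESeq2 called 1 member (Tap1) and limma voom 0. Against H, none was called either, with 0.154% of all genes called (0.115% higher, 0.0385% lower) and 2 members at an unadjusted p under 0.05. There Tap1 was at 1.04 ± 0.29 (adjusted p = 0.0879) and Psmb10 at -0.56 ± 0.15 (adjusted p = 0.0794). DESeq2 called both and limma voom 0, and without DOXH replicate 3 both passed by edgeR (Tap1 1.38, adjusted p = 0.000317; Psmb10 -0.57, adjusted p = 0.0372). Psmb10 read 17.9, 13.7 and 16.3 CPM in DOXH, below every H library (29.0, 18.6 and 22.9 CPM) and every V library. Against V its change was -0.30 ± 0.15 (adjusted p = 0.338). It was the 1 member without overlap in either comparison, where 9.84% of all genes were lower and 9.39% higher against V, and 10.8% lower and 10.3% higher against H. These comparisons share the DOXH libraries with the comparison to DOX, and their values are given side by side only.

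The interaction, which tests whether the doxorubicin change differed with and without hesperitin, called none of the 10 genes by edgeR, DESeq2 or limma voom, and none had an unadjusted p under 0.05. By edgeR no gene of the 10393 was called (0%), against 53 by DESeq2 and 254 by edgeR without DOXH replicate 2. Estimates were -0.90 ± 0.42 for Tap1 (adjusted p = 0.433), -0.98 ± 0.52 for Psmb9 (0.479), -0.72 ± 0.67 for Nlrc5 (0.673) and -0.62 ± 0.35 for Psmb8 (0.506). Without DOXH replicate 3 they were -0.56 for Tap1 (adjusted p = 0.505), -1.03 for Psmb9 (0.638), -0.35 for Nlrc5 (0.894) and -0.41 for Psmb8 (0.744). A difference between the drug's effect alone and with hesperitin was not detectable here for these genes with 3 libraries a group. Leukocyte genes summed to 81.2 to 107.5 CPM in DOXH, above V (at most 75.9 CPM) and overlapping DOX (from 107.1 CPM), and cardiomyocyte genes to 36540 to 58910 CPM. Their part in these values was not tested.

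**Figure D4:**
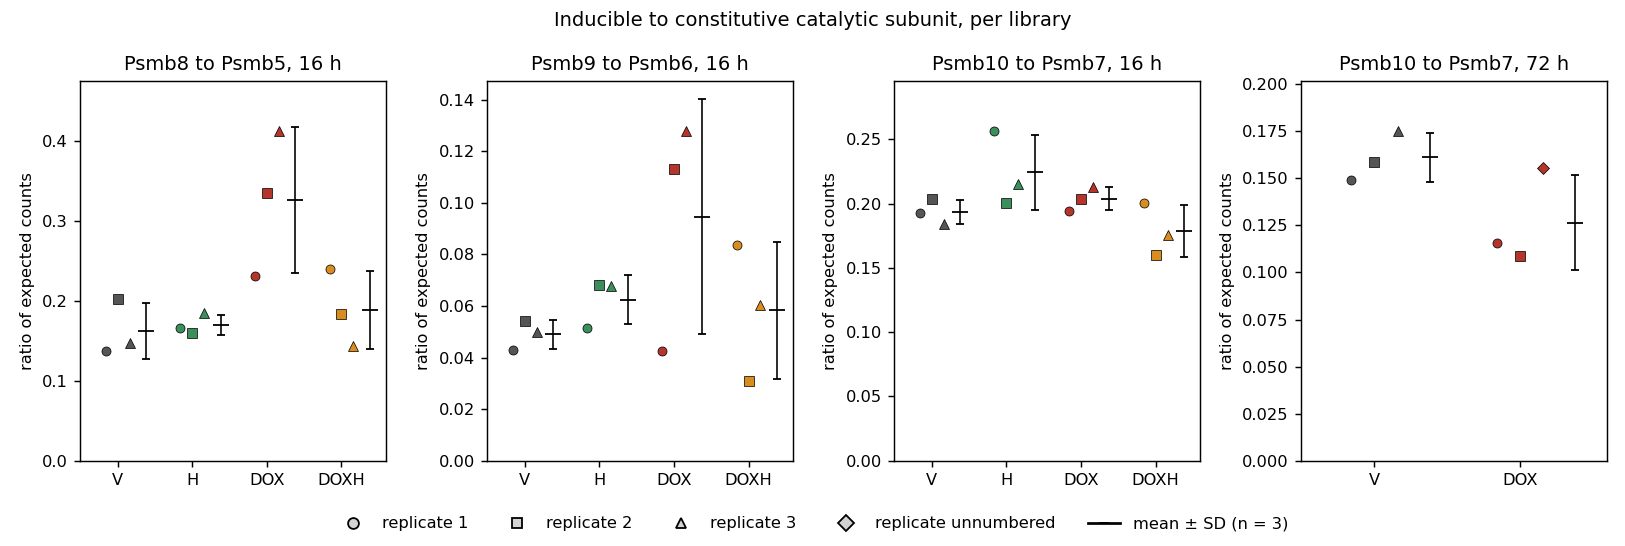
Ratio of each inducible catalytic subunit to the constitutive subunit it replaces, in each library (vertical axis, ratio of expected counts from 0; bars, mean ± SD of 3 libraries). Psmb8 to Psmb5 is 0.232 to 0.413 in DOX and 0.138 to 0.202 in V at 16 h, while Psmb10 to Psmb7 is at most 0.213 in both.

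The ratio of expected counts of each inducible to its constitutive subunit was taken within a library, which library scaling does not touch. It compares RNA counts, not scaled for transcript length. Protein was not measured, so the makeup of the proteasomes was not read. Psmb8 to Psmb5 was 0.138, 0.202 and 0.147 in V and 0.232, 0.335 and 0.413 in DOX at 16 h, higher in all DOX libraries. The ratio was 1.99-fold higher (0.99 on the log2 scale; two-sided exact permutation p = 0.1, the smallest that 3 against 3 allows, 0.286 adjusted over 10 such tests). Psmb9 to Psmb6 was 0.0430, 0.0540 and 0.0497 in V and 0.0426, 0.113 and 0.128 in DOX (exact permutation p = 0.4). Psmb10 to Psmb7 was 0.193, 0.203 and 0.184 in V and 0.195, 0.204 and 0.213 in DOX (exact permutation p = 0.2). So the lower Psmb10 counts at 16 h came with lower Psmb7 counts: Psmb7 fell by 0.41 ± 0.08 (edgeR adjusted p = 0.00467), Psmb5 changed by -0.23 ± 0.08 (0.0502) and Psmb6 by -0.14 ± 0.08 (0.169). At 72 h Psmb10 to Psmb7 was 0.149, 0.159 and 0.175 in V and 0.115, 0.109 and 0.155 in DOX (0.777-fold, exact permutation p = 0.2), with Psmb7 at -0.16 ± 0.08 (edgeR adjusted p = 0.113). In DOXH, Psmb8 to Psmb5 was 0.240, 0.184 and 0.143 (0.582-fold of DOX, exact permutation p = 0.2). No ratio passed, and none could at this group size.

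The wider pathway was read from fixed lists, ordered by role. Interferon ligands came first, and none of the 6 listed was measured. Of 8 receptor and kinase genes measured at 16 h, 2 rose and 1 fell with doxorubicin, where 15.6% of all genes rose and 16.6% fell. They were Jak2, a kinase of the interferon-gamma receptor (0.48 ± 0.10, adjusted p = 0.00490), Usp18, a brake on type I interferon signalling (1.69 ± 0.40, 0.0107), and the receptor chain Ifngr2, which was lower (-0.74 ± 0.23, 0.0293). At 72 h, of 7 measured, Ifngr1 was higher (0.49 ± 0.07, 0.000494) and Ifngr2 (-1.58 ± 0.09, 1.56e-05) and Jak1 (-0.66 ± 0.08, 0.000204) were lower, where 26.5% of all genes rose and 27.2% fell. The 2 chains of the interferon-gamma receptor thus went opposite ways at 72 h.

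Of 17 transcription factors of class I genes, 7 rose and 1 fell at 16 h (15.6% and 16.6% of all genes), led by Stat2 (1.61 ± 0.25, adjusted p = 0.00268), Irf7 (2.26 ± 0.40, 0.00371) and Irf9 (1.14 ± 0.22, 0.00476). Stat2 and Irf9 form the complex that type I interferon activates. At 72 h, 7 of 13 rose and 2 fell (26.5% and 27.2% of all genes), led by Irf3 (0.72 ± 0.11, 0.000619), Stat2 (0.72 ± 0.13, 0.00132) and the NF-kB subunit Rela (0.54 ± 0.10, 0.00170). In the test between times the change of Stat2 was lower (-0.89 ± 0.31, 0.0452) and that of Irf3 higher (0.68 ± 0.17, 0.00904) at 72 h.

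Among interferon-stimulated genes outside antigen presentation, 19 of 20 measured rose and 0 fell at 16 h (15.6% and 16.6% of all genes), with a median of 1.59. Examples are Parp14 (1.52 ± 0.20, adjusted p = 0.00211), Rtp4 (1.81 ± 0.25, 0.00211) and Ddx58, the RNA sensor RIG-I (0.95 ± 0.14, 0.00244). At 72 h 4 of 8 rose (26.5% of all genes), with a median of 0.50, led by Trim25 (0.70 ± 0.10, 0.000462) and Ifit2 (0.62 ± 0.12, 0.00189). The change was smaller at 72 h for 5 of the 8, among them Parp14 (-1.44 ± 0.26, 0.00163), and larger for 0. In that test 13.8% of all shared genes were called lower and 12.6% higher. The class I heavy chains had the opposite sign in that test, with positive differences for H2-K1 and H2-D1 that were not called. Whether the 2 sets differ from each other was not tested.

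The other class I heavy chain genes, which encode further classical-like and non-classical molecules, had calls in 1 direction only, with 0 of the 6 differences between the times called. At 16 h 2 of 7 measured rose and 0 fell (15.6% of all genes rose), H2-T24 (1.25 ± 0.24, adjusted p = 0.00464) and H2-T23 (0.86 ± 0.21, 0.0124), and at 72 h 5 of 6 rose and 0 fell (26.5% of all genes rose), with a median of 0.83. H2-T24 was not analysed at 72 h. H2-T23, which encodes Qa-1, was at 0.86 ± 0.11 (adjusted p = 0.000212), H2-Q4 at 0.82 ± 0.12 (0.000576) and H2-T22 at 0.82 ± 0.15 (0.00183). These genes resemble one another in sequence, so their counts are not independent.

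The loading and trimming partners went both ways. For the counts that follow, 15.6% of all genes were higher and 16.6% lower at 16 h, and 26.5% and 27.2% at 72 h. At 16 h Tapbpl, the tapasin-related editor, was higher (0.62 ± 0.21, adjusted p = 0.0394) and the chaperone Calr lower (-0.45 ± 0.14, 0.0297), 1 each of 6. At 72 h 3 of 5 fell and 0 rose: the peptide trimming enzymes Erap1 (-0.52 ± 0.08, 0.000674) and Lnpep (-0.46 ± 0.12, 0.00941) and the chaperone Canx (-0.30 ± 0.10, 0.0275). Among the 4 proteasome activators, Psme1, a subunit of the interferon-inducible PA28 cap, fell at 16 h (-0.41 ± 0.09, 0.00664) and at 72 h (-0.79 ± 0.07, 4.87e-05). Psme4 was higher at 16 h (0.81 ± 0.20, 0.0113) and lower at 72 h (-0.84 ± 0.11, 0.000257), and the test of that difference gave -1.67 ± 0.25 (0.000591). Psme3 was higher at 16 h (0.30 ± 0.11, 0.0463). Of the other proteasome core subunits and assembly factors, 0 of 15 rose and 2 fell at 16 h (Psmb2 -0.78 ± 0.14, 0.00392; Psmg1 -0.57 ± 0.17, 0.0284), and 8 of 13 rose and 1 fell at 72 h. The rises were led by Psma7 (0.60 ± 0.09, 0.000544) and Pomp, the assembly factor (0.37 ± 0.08, 0.00277). In the comparisons with hesperitin no gene of any of these lists was called by edgeR, where at most 16 of all 10393 genes were. The medians were not all near 0. In DOXH against DOX the median was -0.82 for the 20 interferon-stimulated genes and 0.69 for the 4 class II genes, beside -0.01 over all genes. The other lists lay between -0.26 and 0.19. In H against V the interferon-stimulated and class II medians were 0.05 and -0.40, beside 0.01. These shifts were not tested as sets.

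The 10 genes did not vary as 1 block across the 12 libraries at 16 h. As a description over libraries that share groups and depth, each gene's log2 CPM was correlated with the mean of the other members. Nlrc5 (r = 0.873), Psmb8 (0.834), Tap2 (0.806), H2-K1 (0.799), B2m (0.780) and H2-D1 (0.708) moved most with the others, Psmb9 (0.5852), Tap1 (0.543) and Tapbp (0.519) less, and Psmb10 (-0.131) did not. The genes outside the set whose pattern was most like the mean of the 10 at 16 h were H2-Q4 (r = 0.967), Tgtp1 (0.895), Uba7 (0.867), Shisa4 (0.863), Gbp2 (0.851) and Gvin-ps7 (0.843). At 72 h, over 6 libraries and the mean of 6 members, they were Dhrs4 (0.989), Cox6c2 (0.970), Cab39l (0.967), Pih1d1 (0.959), Abhd2 (0.957) and Igtp (0.955). With 6 libraries and members that moved in both directions, the 72 h likeness is a weak description.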

How the data were processed

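The authors deposited expected counts per gene in 1 table per time, made with RSEM on GRCm38 (mm10) per the submitters' processing notes, which also name DESeq2. The sources used here give no annotation, version or strand setting. RNA was poly(A)-selected and read single-end, per the labels' protocols. At 72 h, 6 columns match no label and were not used, and 1 DOX column has a number no label gives and entered without one. Hesperitin groups at 72 h were not analysed here.

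Counts were rounded, scaled with TMM, filtered with filterByExpr (all 10393 genes kept at 16 h, 7703 of 7723 at 72 h) and tested with edgeR 4.0.16 in R 4.3.3: robust quasi-likelihood, 1 mean per group. The 16 h fit held 12 libraries, the 72 h fit 6 (12 had been planned), and the fit of both times 18, with 8, 4 and 12 residual degrees of freedom. The SE is the absolute log2 fold change over the square root of F. P-values were adjusted over all genes tested. The method was tested on simulated data. Ratios used a pseudocount of 0.5 counts. Correlations used log2 CPM with a prior count of 2. Alternatives included DESeq2 1.42.0 and limma 3.58.1 (voom). Libraries held 9255651 to 20587578 counts, and 3 per group limit the precision.

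The members and lists were chosen with earlier results of these data known. Named are all members, Psmb5 to Psmb7, from each list up to 3 genes with the smallest adjusted p past the threshold, and the 6 genes most like the members at each time.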

Additional observations from a re-analysis of the deposited data

Results flagged for a closer look

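Tapbp, the gene of tapasin, was in the main fit the 1 member whose doxorubicin change differed between the times by a test of the difference itself. The change at 72 h minus that at 16 h was -0.35 on the log2 scale (SE 0.12, edgeR adjusted p = 0.0433). The call was lost in several fits that leave out 1 library and with the replicate number as a block (-0.31, edgeR adjusted p = 0.182). H2-D1 was also called by DESeq2 (adjusted p = 0.0413) and limma voom (adjusted p = 0.0483). For Tapbp, DOX was above V in all libraries at 16 h and below V in all libraries at 72 h, and neither Tapbp change passed on its own in the main fit. Marker levels that moved differently at the times are given above, and their part in this difference was not tested.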

How the results depend on the processing

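For the log2 fold changes of the members (72 results, 1356 alternatives), 1317 alternatives kept the side of the threshold and, for called values, the direction; 21 lost a call, 18 gained one and 0 reversed a called value. In 61, the sign differed while neither value passed. The members called in DOX against V at 16 h were 2, and 4 with only the groups compared (Tapbp and Psmb10 added) or 3 by DESeq2 (Nlrc5 added). Leaving out 1 library gave 1 to 4. At 72 h, 4 members were called, and 3 to 4 with 1 library left out. For the difference between times 1 member was called, 2 by DESeq2 and 2 by limma voom (H2-D1 added in both), and 0 to 2 with 1 library left out. In DOXH against V, 0 were called, 1 by DESeq2 (Tap1, adjusted p = 0.0342) and 0 to 1 with 1 library left out, the 1 being without DOXH replicate 3. In DOXH against H, 0 were called, 2 by DESeq2 (Tap1 and Psmb10) and 0 to 2 with 1 library left out, again without DOXH replicate 3. The summed heavy chain difference between times, 0.57, ran from 0.46 to 0.71 with 1 library left out. Over all genes, DOX against V at 16 h called 3352, and 1928 without V replicate 1, 2021 without V replicate 3 and 2230 without DOX replicate 1. DOXH against V called 0, 131 by DESeq2 and 1674 without DOXH replicate 3, and DOXH against H called 16, 718 by DESeq2, 2298 without DOXH replicate 3 and 0 with only the groups compared.

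Replicate numbers did not pair the libraries at 16 h: of 18 same-number pairs, 4 correlated over 0.1 (-0.415 to 0.25; different numbers -0.427 to 0.526). At 72 h only 2 pairs share a number (0.197 and 0.245), and both lay above the 4 pairs with different numbers (-0.243 to 0.0237). So few pairs cannot settle whether the 72 h libraries are paired, and the main fit treats them as unpaired. With the replicate number as a block, 1 member was called in DOX against V at 16 h (Tap1 1.96, adjusted p = 0.00524), the call of Psmb8 being lost (0.77, adjusted p = 0.0592), 0 in the difference between times (Tapbp -0.31, adjusted p = 0.182) and 4 at 72 h, where the block used 4 libraries. No other member's call changed with the block. Over all genes the block gave 1206 calls in the difference between times, against 1960.

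The members with the lowest CPM in V at 16 h, Psmb9, Nlrc5 and Tap1, had the largest SE in DOX against V (0.37, 0.47 and 0.30). The causes of these shifts were not tested.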
